A study of Mus musculus with 4 samples.

Results

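Terminal oligopyrimidine (TOP) mRNAs are transcripts whose 5′ end begins with a cytosine and an unbroken run of pyrimidines. The 10 described here are those on a list of known TOP mRNAs that do not encode ribosomal proteins: Eef1a1, Eef1b2, Eef1d, Eef1g, Eef2, Pabpc1, Tpt1, Rack1, Nap1l1 and Vim. They were chosen by gene symbol, by a rule that used none of their values, but with earlier results of these data known. The table held 16442 genes, and all 10 were in it. All 10 also passed the filter on low values that left 6389 genes for testing. The study profiled ribosome footprints and input RNA of leukaemia stem cells, the cells that propagate a leukaemia, with 2 libraries labelled Rreb1 knockout (KO) and 2 wild-type (WT) libraries. Rreb1 encodes a zinc finger transcription factor that binds Ras-responsive elements. All 4 samples came from bone marrow, carry leukaemia as disease state and list C57BL/6 under cell line, and KO replicate 2 was placed in its group by its title, since its genotype label names Rreb2-KO. The animals' age, the leukaemia's driver, the deleted stretch of Rreb1 and whether animals were pooled are not given in the labels. The series calls the replicates biological without naming animals, so the p-values reflect only how far these libraries differ from each other, which may be technical.

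The TOP motif couples the production of the translation machinery to growth signals. When the kinase mTORC1 is active, TOP mRNAs are loaded with ribosomes, and when it is inhibited, the RNA-binding protein LARP1 holds their capped 5′ ends and keeps them out of polysomes while protecting them from decay. Besides ribosomal proteins, the class holds the elongation factors, a poly(A)-binding protein and a few mRNAs with roles outside elongation. Translational efficiency (TE), the footprint level over the RNA level of the same gene, is the quantity in which such control is usually read.

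The first bases of each transcript carry the motif that defines the class, and are therefore shown for the members with an entry in the RefSeq promoter table of build GRCm38.p6, which were 7 of 10. Eef1d, Eef1g and Pabpc1 had none. Each stretch of 30 bases runs 5′ to 3′ on the gene's strand from 5 bases before the annotated start to the end of the first 25 transcribed bases, and capitals mark a C followed by at least 4 bases that are each C or T.
Eef1a1, chr9:78481700-78481729, minus strand: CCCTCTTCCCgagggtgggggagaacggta
Eef1b2, chr1:63176826-63176855, plus strand: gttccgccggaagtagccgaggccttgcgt
Eef2, chr10:81176626-81176655, plus strand: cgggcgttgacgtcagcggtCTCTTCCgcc
Tpt1, chr14:75845251-75845280, plus strand: acgacagttccgggggagccgcggacggtg
Rack1, chr11:48800355-48800384, plus strand: tCTTTCTTTTTCTCCacagggtcgtggtgg
Nap1l1, chr10:111473222-111473251, plus strand: cgggtCTTTTTTagcgccatctgctcgcgg
Vim, chr2:13574306-13574335, plus strand: cagtCCTCTgccaCTCTTgctccgggaccc
A run lay somewhere in the 30 bases of 5 of the 7 members, against 34.6% of the 32851 starts in the table. The annotated first base was itself a C followed by at least 4 bases that are each C or T in 2 of the 7, against 2.51% of all starts and 20.6% of the 68 starts of ribosomal protein genes, counted in the same way. These were Nap1l1, whose run begins there, and Rack1, whose run also extends to the 4 bases before it. Annotated starts can lie some bases from the start used in a given cell, so the absence of a run in a stretch says only that these letters are not there. The motif was searched on the gene's strand only, because it acts in the transcript.

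Assigned footprint reads numbered 364087 and 274183 in KO-labelled replicates 1 and 2, against 878068 and 656249 in WT replicates 1 and 2, a span of 3.2-fold. Depths of the input libraries differed by at most 1.12-fold. Footprint levels of all tested genes correlated at r = 0.782 between the KO-labelled replicates and 0.940 between the WT replicates, and RNA levels at 0.996 and 0.997. Rreb1 RNA itself stood at 6.10 and 6.93 RPKM in the KO-labelled libraries, against 3.33 and 3.25 RPKM in the WT libraries. It was higher where the label says knockout, by 0.81 ± 0.09 on the log2 scale (SE, limma adjusted p = 0.000283), and the part deleted is not known, so the genotype labels were neither borne out nor refuted by this gene and every direction below rests on them. Among 7 markers of leukaemia stem and progenitor cells, summed RNA was 263.8 and 252.3 RPKM in the KO-labelled libraries, against 147.4 and 151.6 in WT. Of these, 5 were called higher and 0 lower. Cd34 was at 50.5 and 49.8 RPKM, against 4.41 and 4.71 in WT, while Meis1 was at 11.9 and 11.5, against 12.5 and 12.1, and Hoxa9 at 35.8 and 31.8, against 32.6 and 34.6. Among 9 markers listed as mature myeloid the sums were 11099 and 10686 RPKM, against 31908 and 31171 in WT, with 7 markers called lower and 1 higher. A few genes dominated these sums. Chil3 was at 312.6 and 291.1 RPKM, against 10543 and 10534 in WT, and Elane at 7205 and 6264, against 8691 and 8517. Ly6c2 went the other way, at 645.2 and 705.4 RPKM, against 232.4 and 210.5 in WT. Itgam overlapped between groups, at 11.5 and 19.5, against 12.8 and 11. Mast cell, basophil and eosinophil markers summed to 516.6 and 498.9 RPKM, against 35.5 and 33.6 in WT. No marker of these lists was at 0 in all libraries.

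RNA of most of the TOP mRNAs was higher in the KO-labelled libraries. Their footprints and translational efficiencies gave no call in either direction, where 1.06% and 0% of all tested genes were called. SEs of the 10 ran from 0.25 to 2.20 in footprints, against 0.06 to 0.13 in RNA. Differences of the size seen in RNA could thus hardly be called in footprints, and the lack of calls does not set the 2 measures apart. In input RNA, 7 of the 10 rose (Pabpc1, Nap1l1, Tpt1, Eef1b2, Rack1, Eef1d and Eef1g), 0 fell and 3 did not pass the test (Eef2, Eef1a1 and Vim). The median log2 difference of the 10 was 0.40, against 0.04 over all tested genes. Levels here are RPKM, which divides the reads of a gene by its coding length and by the depth of the library, and differences are KO-labelled minus WT on the log2(RPKM + 1) scale, tested with limma at a Benjamini-Hochberg adjusted p of 0.05 over all 6389 genes. By this rule 60.8% of all tested genes were called in RNA, made up of 33.1% of all tested genes called higher and 27.7% called lower, so a call in RNA was frequent in this comparison. In bulk libraries, fewer cells of a type and less RNA per cell cannot be told apart. The marker sums of other cell types moved with the same contrast, and their part in these RNA differences was not tested.

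In footprints, 0 of the 10 were called by limma and 0 had an unadjusted p under 0.05, against a background of 1.06% called (68 of 6389 genes, with 1164 at an unadjusted p under 0.05). On whole reads recovered from the RPKM steps, limma-voom also called 0 of the 10, with 2 at an unadjusted p under 0.05. The footprint difference was above 0 for 6 members and below 0 for 4, with a median of 0.21, against -0.13 over all tested genes. In TE, limma called 0 of the 10, again with 0 at an unadjusted p under 0.05, against a background of 0% (0 of 6389 genes, with 831 at an unadjusted p under 0.05). The TE difference was above 0 for 4 members and below 0 for 6, with a median of -0.21, against -0.15 over all tested genes. These medians rest on few libraries. The footprint median was -0.28 and the TE median -0.76 without Eef1a1, Eef1g, Pabpc1 and Tpt1, the 4 members with the widest footprint gaps between the KO-labelled replicates, a choice made after their values were seen. Leaving out 1 library at a time, the footprint median ran from -0.09 without WT replicate 2 to 0.53 without WT replicate 1, and the TE median from -0.51 to 0.14 without the same libraries.

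**Figure D1:**
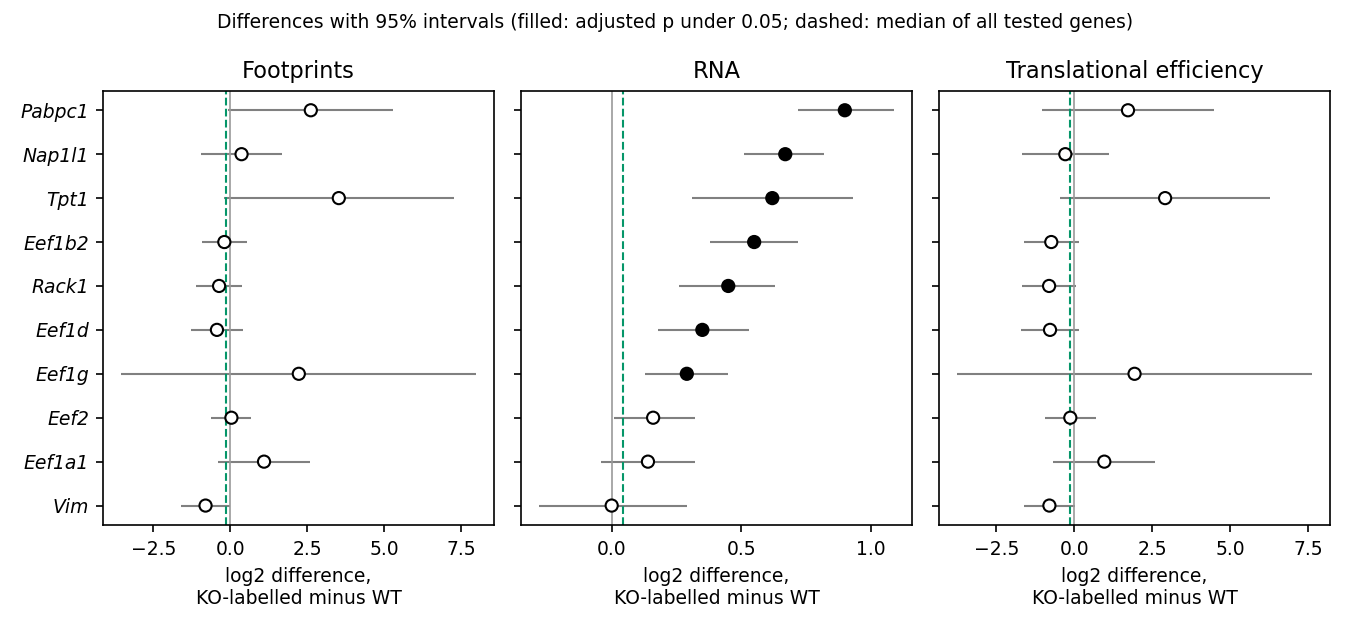
Log2 differences (x axes, KO-labelled minus WT) of the 10 TOP mRNAs (rows) in footprints, input RNA and translational efficiency. Points are limma estimates and bars 95% intervals, filled points have an adjusted p under 0.05, and the dashed line is the median of all tested genes; 7 RNA points are filled, and no footprint or efficiency point is.

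Elongation begins with eEF1A, the GTPase that brings each aminoacyl-tRNA to the ribosome, encoded here by Eef1a1. Its RNA stood at 615.1 and 659.9 RPKM in KO-labelled replicates 1 and 2, against 577.3 and 578.3 RPKM in WT replicates 1 and 2. The groups did not overlap, but the gap was small, 0.14 ± 0.08 on the log2 scale (SE, limma adjusted p = 0.144). Without KO replicate 1 the same gene was called (0.19, adjusted p = 0.011). Eef1a1 footprints were at 1346 and 500.0 RPKM in the KO-labelled libraries, against 485.6 and 301.2 RPKM in WT. KO replicate 1 stood well above the other libraries and KO replicate 2 barely above WT replicate 1. The difference of 1.10 ± 0.57 (limma adjusted p = 0.393) was within this spread, although without KO replicate 2 it came to 1.81 (adjusted p = 0.045). TE was 2.19 and 0.758 in the KO-labelled libraries, against 0.842 and 0.522 in WT, with overlapping groups (0.96 ± 0.63, limma adjusted p = 0.549).

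The eEF1B complex reloads eEF1A with GTP. Eef1b2 and Eef1d encode its nucleotide exchange subunits and Eef1g the subunit that holds them together. RNA of all 3 subunits rose. Eef1b2 RNA was 69.5 and 73.9 RPKM in the KO-labelled libraries, against 50.4 and 46.9 RPKM in WT. The replicates lay close together and the groups apart, a difference of 0.55 ± 0.07 (limma adjusted p = 0.000487). Eef1d RNA was 30.0 and 27.3 RPKM in the KO-labelled libraries, against 22.2 RPKM in both WT libraries (0.35 ± 0.07, adjusted p = 0.00503). Eef1g RNA was 76.2 and 73.6 RPKM in the KO-labelled libraries, against 58.8 and 63.3 RPKM in WT. This was the smallest of the called RNA differences (0.29 ± 0.07, limma adjusted p = 0.00825), and it was not called without WT replicate 1 (0.24, adjusted p = 0.114).

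For the exchange subunits, neither footprints nor TE passed the test. Eef1b2 footprints were at 155.7 and 147 RPKM in KO-labelled replicates 1 and 2, against 152 and 195.8 RPKM in WT, with overlapping groups (-0.19 ± 0.28, limma adjusted p = 0.758). Eef1d had 52.6 and 59.1 RPKM in the KO-labelled libraries, against 62.6 and 90.5 RPKM in WT. Both KO-labelled values were lower, by no more than the WT replicates differed (-0.43 ± 0.33, limma adjusted p = 0.534). TE of Eef1b2 was 2.22 and 1.98 in the KO-labelled libraries, against 2.98 and 4.11 in WT. TE of Eef1d was 1.73 and 2.13, against 2.74 and 3.95 in WT. For both genes the KO-labelled values were below the WT ones without overlap, but the differences of -0.74 ± 0.34 and -0.78 ± 0.36 did not pass the test (limma adjusted p = 0.441 for each).

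Eef1g footprints could not be read as a group difference. They stood at 64.9 and 795.7 RPKM in KO-labelled replicates 1 and 2, against 351.8 and 5.81 RPKM in WT replicates 1 and 2, from 31 and 286 reads against 405 and 5 reads. The high and low libraries alternated across groups, with KO replicate 2 and WT replicate 1 high. The fitted difference was 2.23 with an SE of 2.20 (95% interval -3.54 to 7.99, limma adjusted p = 0.633), and it was -0.62 without WT replicate 2. TE followed the footprints, at 0.854 and 10.7 in the KO-labelled libraries, against 5.90 and 0.106 in WT. RNA of the same gene differed by 1.04-fold between the KO-labelled replicates and 1.08-fold between the WT replicates, so the alternation was in the footprints alone.

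eEF2 moves the ribosome on by 1 codon after each peptide bond, and its footprints differed least of the 10 between groups and between the KO-labelled replicates. Eef2 footprints were at 382 and 372.7 RPKM in the KO-labelled libraries, against 383.6 and 351.6 RPKM in WT. All 4 values fell within a narrow band and the groups overlapped (0.04 ± 0.25, 95% interval -0.61 to 0.69, limma adjusted p = 0.947). Eef2 RNA was 178.2 and 187.6 RPKM in the KO-labelled libraries, against 161.3 and 164.9 RPKM in WT. Both KO-labelled values were higher, and the difference of 0.16 ± 0.07 missed the threshold (limma adjusted p = 0.0639; 0.0152 without KO replicate 1). TE was 2.14 and 1.98 in the KO-labelled libraries, against 2.37 and 2.13 in WT (-0.13 ± 0.31, limma adjusted p = 0.884). Its sign turned to 0.01 when libraries were centred on their medians.

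Pabpc1 encodes the cytoplasmic poly(A)-binding protein, which covers the mRNA tail and contacts initiation factors at the cap. Its RNA showed the largest difference of the 10, at 104.5 and 117.3 RPKM in the KO-labelled libraries, against 56.7 and 60.7 RPKM in WT. The groups were well separated (0.90 ± 0.08, limma adjusted p = 8.01e-05). Pabpc1 footprints were at 3658 and 439.7 RPKM in KO-labelled replicates 1 and 2, against 185.6 and 227.6 RPKM in the WT libraries. Both KO-labelled values were above WT, yet KO replicate 1, with 2541 reads on this gene, was 8.32-fold above KO replicate 2, with 230 reads. The footprint difference of 2.62 ± 1.03 did not pass the test (limma adjusted p = 0.286). It came to 1.09 without KO replicate 1 (adjusted p = 0.0892) and to 4.15 without KO replicate 2 (adjusted p = 0.00838). TE was 34.7 and 3.73 in the KO-labelled libraries, against 3.24 and 3.70 in WT, so that KO replicate 2 lay next to WT (1.72 ± 1.07, limma adjusted p = 0.53; 3.32 without KO replicate 2, adjusted p = 0.0163).

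Tpt1, which encodes the translationally controlled tumour protein, a growth and survival factor, showed the reverse library pattern. Its footprints were at 133.1 and 2212 RPKM in KO-labelled replicates 1 and 2, against 26.5 and 79.7 RPKM in the WT libraries. Here KO replicate 2 was the high library, 16.6-fold above KO replicate 1, and the WT replicates differed by 3.01-fold. The WT values rest on 12 and 27 reads, and the KO-labelled ones on 25 and 313. The largest footprint difference of the 10, 3.53 ± 1.43, did not pass the test (limma adjusted p = 0.298), and it was called only without KO replicate 1 (5.55, adjusted p = 0.0348) among the libraries left out. Tpt1 RNA was 179.7 and 243.4 RPKM in the KO-labelled libraries, against 138.2 and 133.1 RPKM in WT. Both KO-labelled values were higher than both WT values (0.62 ± 0.13, limma adjusted p = 0.00524), and the call was lost when every gene of the table entered the fit (adjusted p = 0.0641). TE was 0.742 and 9.06 in the KO-labelled libraries, against 0.197 and 0.602 in WT (2.91 ± 1.30, limma adjusted p = 0.431).

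Rack1 sits on the head of the small ribosomal subunit and serves there as a scaffold for signalling proteins. Rack1 RNA rose, at 148.2 and 165.5 RPKM in the KO-labelled libraries, against 118.3 and 110.9 RPKM in WT (0.45 ± 0.08, limma adjusted p = 0.00215). Its footprints were at 730.7 and 701.8 RPKM in the KO-labelled libraries, against 1083 and 781.9 RPKM in WT. Both KO-labelled values lay under both WT values, by less than the WT replicates differed from each other (-0.36 ± 0.29, limma adjusted p = 0.556). TE was 4.90 and 4.22 in the KO-labelled libraries, against 9.08 and 7.0 in WT. The groups did not overlap, and the difference of -0.81 ± 0.33 did not pass the test (95% interval -1.67 to 0.05, unadjusted p = 0.0601, limma adjusted p = 0.402).

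Nap1l1 encodes a histone chaperone of the nucleosome assembly protein family. Its RNA rose to 48.1 and 48.9 RPKM in the KO-labelled libraries, against 29.5 and 30.9 RPKM in WT. Replicates were nearly equal and the groups far apart (0.67 ± 0.06, limma adjusted p = 0.000128). Nap1l1 had few footprints, 41.8 and 32.1 RPKM in the KO-labelled libraries from 19 and 11 reads, against 42.9 and 18.3 RPKM in WT from 47 and 15 reads. The groups overlapped and neither footprints (0.37 ± 0.50, limma adjusted p = 0.735) nor TE (-0.29 ± 0.54, adjusted p = 0.834) passed the test. TE was 0.873 and 0.665 in the KO-labelled libraries, against 1.44 and 0.606 in WT.

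Vim encodes vimentin, the intermediate filament protein of mesenchymal and blood cells. It was the member with the smallest RNA difference and the lowest unadjusted p in footprints. Vim RNA was 89.0 and 117.1 RPKM in the KO-labelled libraries, against 103.3 and 100.7 RPKM in WT, with the WT values between the KO-labelled ones (0.00 ± 0.12, limma adjusted p = 0.993). The sign was set by the library left out, 0.20 without KO replicate 1 (adjusted p = 0.02) and -0.20 without KO replicate 2 (adjusted p = 0.0228). Vim footprints were at 601.2 and 868.8 RPKM in the KO-labelled libraries, against 1175 and 1345 RPKM in WT. Both KO-labelled values were lower than both WT values, a difference of -0.80 ± 0.31 that did not pass the test over all genes (unadjusted p = 0.0508, limma adjusted p = 0.276). TE was 6.69 and 7.36 in the KO-labelled libraries, against 11.3 and 13.2 in WT. This gap was also -0.80, with an SE of 0.32 (unadjusted p = 0.053, limma adjusted p = 0.387), and it kept its sign without each library in turn, from -0.92 to -0.68. Of the vimentin-rich stroma and endothelium markers, 4 of 8 were in the table and 2 entered the test. Their summed RNA was 72.4 and 79.7 RPKM in the KO-labelled libraries, against 11.7 and 12.1 in WT. Pecam1 alone held 48.7 and 53 RPKM of these sums, against 10.5 and 10.6 in WT. Pdgfrb was next, at 19 and 21 RPKM, against 0.974 and 1.1 in WT. Col1a1 was at 4.56 and 5.66 RPKM, against 0.215 and 0.268 in WT, and Sparc at 0.229 and 0.0775, against 0.0552 and 0.116. The sums therefore rest mainly on Pecam1, with Pdgfrb second in every library. The part of these markers in the vimentin values was not tested.

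**Figure D2:**
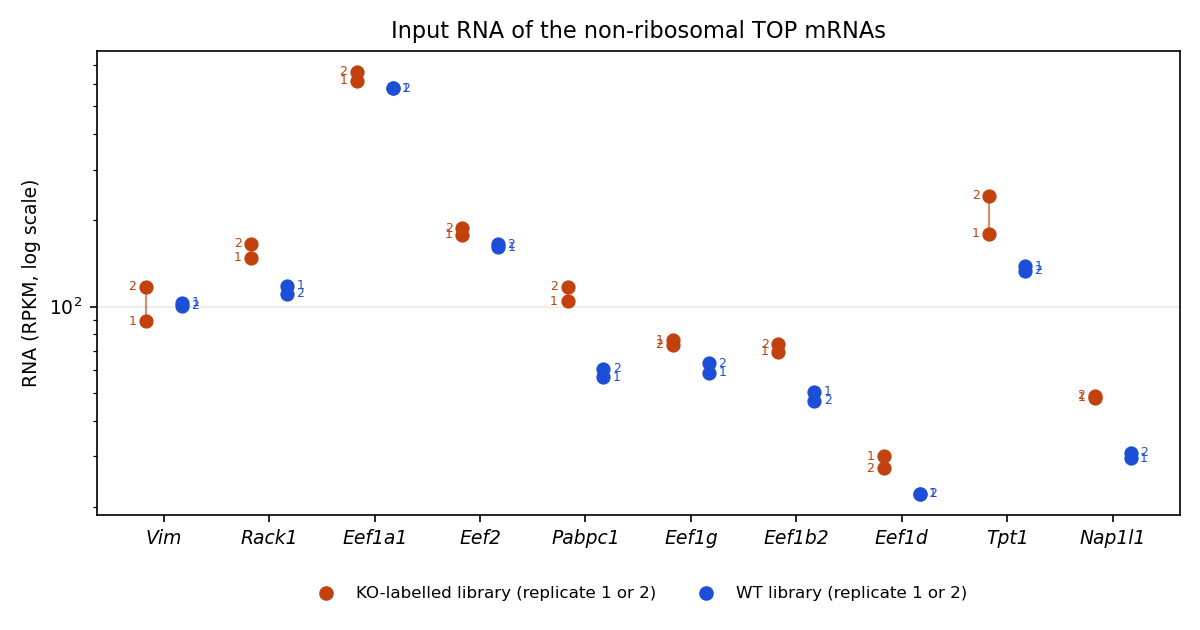
Input RNA of the 10 TOP mRNAs (y axis, RPKM on a log scale) in each library, with KO-labelled libraries to the left of WT libraries and the replicate number beside each point. Replicates lie close together, and the WT points of Vim lie between its KO-labelled points. In limma 7 of the 10 were called higher, against 33.1% of all tested genes.

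**Figure D3:**
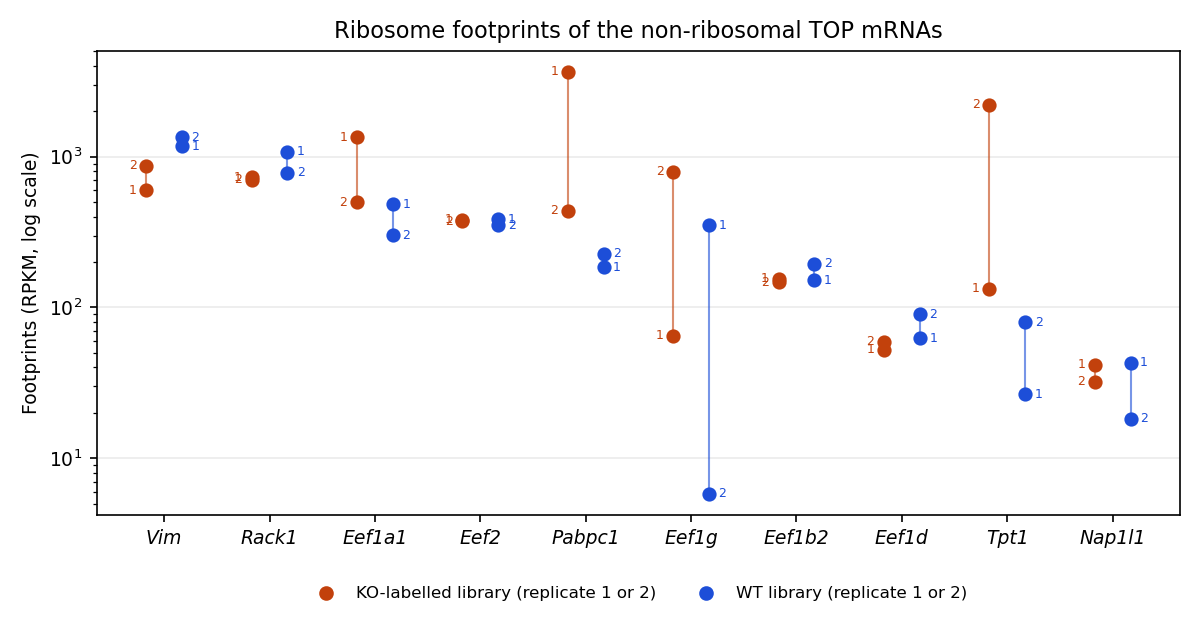
Ribosome footprints of the 10 TOP mRNAs (y axis, RPKM on a log scale) in each library, with KO-labelled libraries to the left of WT libraries and the replicate number beside each point. Lines join replicates, and they are long for Pabpc1 and Tpt1 in the KO-labelled libraries and for Eef1g in both groups.

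Gaps of at least 4-fold between replicates were seen in footprints and not in RNA. Gaps were counted on the log2(RPKM + 1) scale. A gap of at least 4-fold between the KO-labelled replicates was found for 3 of the 10 TOP mRNAs (Tpt1, Eef1g and Pabpc1), against 7.83% of all tested genes (500 of 6389). Between the WT replicates it was found for Eef1g only among the 10, against 1.49% of all tested genes (95 of 6389). Eef1g differed by 60.5-fold in RPKM between WT replicates. On the log2(RPKM + 1) scale its gap was 5.69, and 4 of the 6389 tested genes had a larger one. In RNA, 0 members and 0 tested genes had such a gap in either group. RNA of Tpt1 and Vim still differed by 1.35-fold and 1.32-fold between the KO-labelled replicates, and only 133 and 197 tested genes had a larger RNA gap there. KO replicate 2 was the higher library for both genes, in RNA as in footprints. Footprints of ribosomal protein mRNAs also showed 4-fold gaps, with 4 of 20 large subunit and 4 of 19 small subunit genes between the KO-labelled replicates and 2 of each between the WT replicates. Elongation factor, Tpt1 and ribosomal protein genes have processed pseudogene copies, and how reads that map to several places were counted is not stated in the sources used here, so the levels of these genes are uncertain to that extent.

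**Figure D4:**
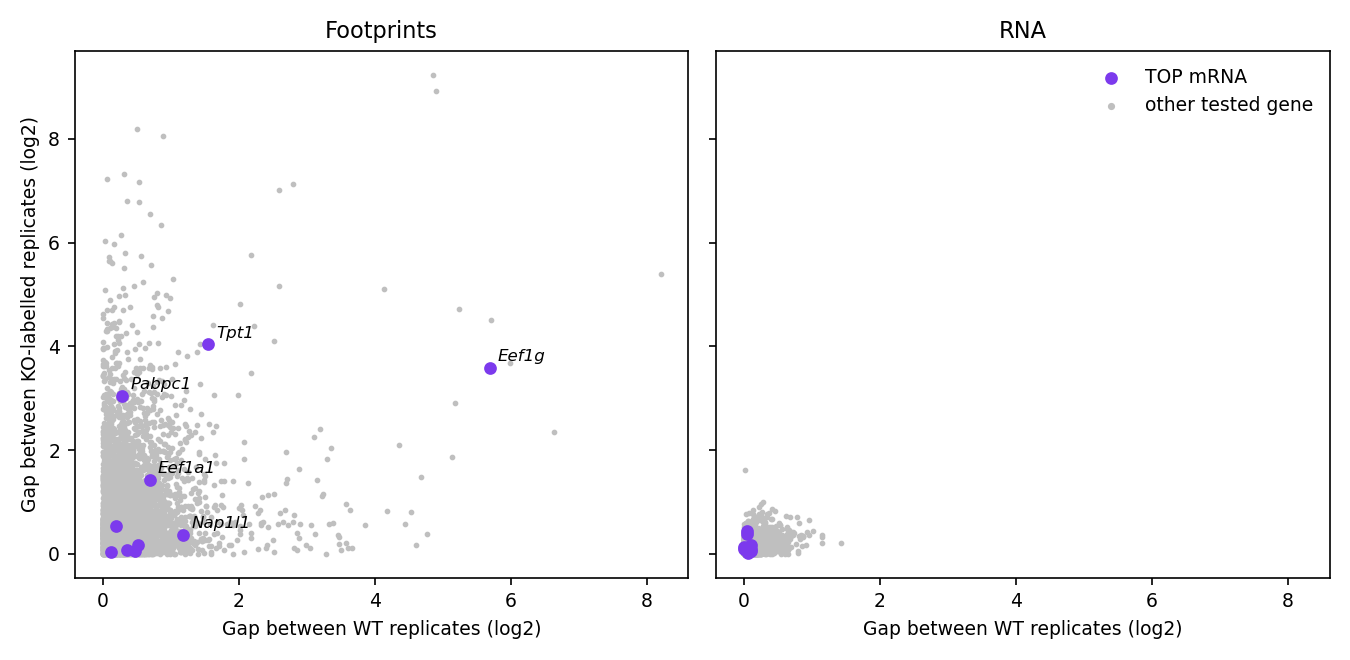
Absolute log2 gap between the WT replicates (x axis) and between the KO-labelled replicates (y axis) for each tested gene, in footprints and in input RNA on the same axes. The 10 TOP mRNAs are drawn larger, and Eef1g, Tpt1 and Pabpc1 stand out in footprints, while all 10 lie near the origin in RNA.

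Together the 10 mRNAs held 1.18% and 0.683% of the assigned footprint reads in KO-labelled replicates 1 and 2, against 0.546% and 0.479% in WT replicates 1 and 2. The exact 95% binomial intervals, which cover counting error only, were 1.15 to 1.22% and 0.653 to 0.715% in the KO-labelled libraries, against 0.531 to 0.562% and 0.463 to 0.496% in WT. Most of that gap lay in the genes whose replicates disagreed. Without Eef1g, Tpt1 and Pabpc1, a choice made after their values were seen, the shares were 0.467% and 0.381% in the KO-labelled libraries, against 0.463% and 0.431% in WT. The KO-labelled range then contained the WT range.

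The members covered a wide range of levels. In RNA, which is per kilobase and can be ordered across genes, Eef1a1 was the highest in both groups at 637.5 ± 31.7 RPKM in the KO-labelled libraries and 577.8 ± 0.705 RPKM in WT (SD, n = 2 each). Eef1d was the lowest, at 28.6 ± 1.93 RPKM in the KO-labelled libraries and 22.2 ± 0.0443 RPKM in WT. Neighbours in this order overlapped for Tpt1 and Eef2, Pabpc1 and Vim, and Eef1g and Eef1b2 in the KO-labelled libraries, and for Eef1g and Pabpc1 in WT. Eef1d, though last, lay above 72.3% of tested genes in the KO-labelled libraries and 65.4% in WT. In footprints, Vim and Rack1 led in WT, at 1260 ± 120.5 and 932.3 ± 212.6 RPKM, while neighbours overlapped for Eef1a1 and Eef2, Pabpc1 and Eef1g, Eef1g and Eef1b2, Eef1d and Tpt1, and Tpt1 and Nap1l1. In the KO-labelled libraries each of the 6 highest, led by Pabpc1 at 2049 ± 2276 RPKM, overlapped the next in order.

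TE was not high for the class as a whole. The median TE of the 10 was 2.16 and 2.93 in the KO-labelled libraries, against 2.86 and 2.91 in WT, and that of all tested genes 2.51 and 2.65, against 2.81 and 2.87 in WT. Vim had a TE of 7.03 ± 0.473 in the KO-labelled libraries and 12.3 ± 1.4 in WT, above 85.2% and 93.7% of tested genes. Eef1a1, the most abundant of these mRNAs, had a TE of 1.47 ± 1.01 in the KO-labelled libraries and 0.682 ± 0.226 in WT, above 24.2% and 4.05% of tested genes. Nap1l1 was the lowest in the KO-labelled libraries at 0.769 ± 0.147, and Tpt1 the lowest in WT at 0.4 ± 0.286, but each overlapped Eef1a1, the next above it.

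The other TOP mRNAs, those of ribosomal proteins, had RNA differences of the same sign. Where 33.1% of all tested genes were called higher in RNA, 18 of 20 tested large subunit genes (of 47 in the table) rose and 0 fell, with a median log2 difference of 0.51. Among small subunit genes (19 of 32), RNA of all 19 rose, with a median of 0.54, led by Rps20 at 39.6 and 56.7 RPKM in the KO-labelled libraries, against 22 and 20.1 RPKM in WT (1.14 ± 0.15, limma adjusted p = 0.000594). In footprints limma called 0 genes of either subunit, with 4 large and 2 small subunit genes at an unadjusted p under 0.05, and the medians were -0.21 for the large and 0.10 for the small subunit. In TE limma called 0, with 3 large and 2 small subunit genes at an unadjusted p under 0.05, and the medians were -0.59 and -0.41. A further list held other genes reported as TOP mRNAs, some of them only in part. Among its 12 tested mRNAs, RNA of 8 rose and 1 fell (75% called against 60.8%). In footprints and TE, 0 were called by limma (0 at an unadjusted p under 0.05 in each). Npm1, the nucleolar chaperone nucleophosmin, was at 189.9 and 209.4 RNA RPKM in the KO-labelled libraries, against 119.5 and 118 RPKM in WT (0.74 ± 0.07, limma adjusted p = 0.000128). It is also counted among the histone chaperones below.

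Regulators of the class were called in RNA about as often as other genes, 9 of 15 tested genes of the LARP1 and mTORC1 list against 60.8% of all tested genes. Larp1 RNA was 3.96 and 5.86 RPKM in the KO-labelled libraries, against 2.83 and 2.38 RPKM in WT, a low level in all 4 (0.70 ± 0.16, limma adjusted p = 0.00693). TE of Larp1 was 7.08 and 6.42 in the KO-labelled libraries, against 11.1 and 15.8 in WT (-0.97 ± 0.35, limma adjusted p = 0.364). Mtor, the kinase of mTORC1, had RNA of 4.60 and 5.61 RPKM in the KO-labelled libraries, against 3.78 and 3.72 RPKM in WT (0.36 ± 0.10, limma adjusted p = 0.0201). RNA of 7 genes of this list rose and 2 fell, and limma called 0 in footprints and 0 in TE, with 0 and 1 at an unadjusted p under 0.05. The RNA-binding proteins Tia1 and Tial1, which bind TOP mRNAs under stress, were among the risers, Tia1 at 6.87 and 7.11 RPKM in the KO-labelled libraries, against 3.52 and 3.72 RPKM in WT (0.79 ± 0.08, adjusted p = 0.000194).

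The partners of individual members were mixed, and their RNA counts stand beside the 60.8% of all tested genes called in either direction. Of 10 tested genes of elongation and termination outside the class, RNA of 1 rose and 4 fell, so that 5 of 10 were called, with a median log2 difference of -0.14. Eef2k, the kinase that inhibits eEF2, fell to 7.23 and 7.05 RNA RPKM in the KO-labelled libraries, against 9.99 and 9.89 RPKM in WT (-0.43 ± 0.08, limma adjusted p = 0.00243). Of 7 tested enzymes that modify eEF1A or eEF2, RNA of 0 rose and 2 fell, among them Eef1akmt1, a methyltransferase of eEF1A, at 46.2 and 48.8 RPKM in the KO-labelled libraries, against 61.6 and 58.9 RPKM in WT (-0.34 ± 0.07, limma adjusted p = 0.00387). Of 4 tested partners of the poly(A)-binding protein, RNA of 2 rose and 1 fell. These small counts were not read as differing from that share. The one that fell, Paip2, an inhibitor of that protein, was at 46.7 and 40.2 RPKM in the KO-labelled libraries, against 58.5 and 56.1 RPKM in WT (-0.39 ± 0.08, adjusted p = 0.00548).

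Among 9 tested histone chaperones beside Nap1l1, RNA of 5 rose and 1 fell, 66.7% called against 60.8% of all tested genes. Asf1a, a chaperone of histones H3 and H4, was at 34.1 and 30.8 RPKM in the KO-labelled libraries, against 12.5 and 12.1 RPKM in WT (1.33 ± 0.08, limma adjusted p = 9.99e-06). Of 7 tested filament partners of vimentin, RNA of 2 rose and 3 fell, 71.4% called against the same 60.8%. Lmna, the nuclear lamin A/C gene, fell to 3.62 and 3.43 RNA RPKM in the KO-labelled libraries, against 22.6 and 22.9 RPKM in WT (-2.39 ± 0.08, limma adjusted p = 4.93e-07). Its footprints were 4.05 and 3.59 RPKM in the KO-labelled libraries, against 28 and 43.5 RPKM in WT, with no overlap and an adjusted p of 0.0629. In all 5 of these partner lists limma called 0 genes in footprints and 0 in TE. At an unadjusted p under 0.05 the footprint lists held at most 2 genes and the TE lists at most 1.

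The genes whose pattern over the libraries was nearest to the mean of the 10 were Cdan1, Unc13d, Mrps35, Ercc6 and Pds5b. Nearness was the root mean square distance over 8 values, log2 footprints and log2 RNA in 4 libraries with each gene centred on its own mean, and it ran from 0.06 for Cdan1 to 0.09 for Pds5b. The members themselves were farther from their own mean. Nap1l1, the nearest of them, lay at 0.30 with 792 other genes nearer, and Eef1g, the farthest, at 1.61 with 6235 nearer.

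The authors' deposited table gives a p-value per gene on TE. It lists 0.0187 for Vim and 0.0433 for Rack1, both with lower TE in the KO-labelled libraries, and values above 0.05 for the other 8, of which the lowest was 0.0651 for Eef1b2. That column is headed as adjusted, yet in the authors' deposited table it lies within 1e-06 of a one-sided equal-variance test on TE without adjustment for all 16250 genes compared, and 3432 genes, 20.9% of the table, lie under 0.05 in it.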

How the data were processed

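Per the labels' protocols, lysates were digested with micrococcal nuclease, fragments of 25 to 40 nucleotides were taken, and undigested lysate was set aside for input RNA. The tools listed in the submitters' processing notes are HISAT2 2.1.0, featureCounts, CASAVA and DESeq2, with no roles, and the build listed is hg38, a human one, although symbols and samples are mouse. No genome coordinates of the deposited table were used. Per the file headers, the authors deposited for each gene the values of ribosome-protected fragments, their TE and a p-value. The deposited fragment values behaved as RPKM plus 1, read from their steps and not stated in the labels. The deposited TE is a ratio of the fragment value to an input value with the same floor, and input RNA RPKM was computed as their quotient minus 1. The authors' deposited p-value is given only as theirs.

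Whole footprint reads were recovered for 10536 of 10536 genes with footprints in at least 2 libraries (100% whole, tolerance 0.002 reads). Genes with a CPM of at least 20 in at least 2 libraries entered limma 3.58.1 (R 4.3.3) on log2(RPKM + 1), with a mean-variance trend, group as the only term and two-sided tests adjusted by Benjamini-Hochberg over all 6389 genes. TE was the per-library log2 footprint minus log2 RNA, each with 1 added. Fold changes on this scale understate those of low genes. Recovery and fits were tried on simulated data. The simulated fits gave all libraries 1 spread, taken from the median gap between the WT replicates. They therefore do not cover the wider gaps between the KO-labelled replicates. Python 3.11.15 was used for tables and plots.

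Named genes were the members, Rreb1, Larp1 and Mtor, the 5 nearest genes, and from each companion list any gene called in footprints or TE and up to 3 with the largest RNA difference. The members and lists were chosen with earlier results of these data known. Groups share replicate numbers, but same-numbered libraries did not deviate together (r of deviations 0.0226 in footprints and -0.335 in RNA), so the numbers were not taken as pairs. The alternatives were filters, pseudocounts, variance model, centring, libraries left out, replicate blocks and limma-voom on recovered reads.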

Additional observations from a re-analysis of the deposited data

How the results depend on the processing

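Of the single-gene values under the alternatives, 124 of 130 in footprints, 113 of 120 in RNA and 116 of 120 in TE kept both their direction and their side of the threshold. Leaving out 1 library left a lone sample in a group, which was assumed to vary like the other group. The RNA median of the members then ran from 0.376 without WT replicate 2 to 0.424 without WT replicate 1. Footprint differences moved from 3.532 to 5.554 for Tpt1 without KO replicate 1. Without KO replicate 2 they moved from 1.099 to 1.812 for Eef1a1 and from 2.620 to 4.147 for Pabpc1, whose TE difference moved from 1.716 to 3.325. The TE median of the members ran from -0.511 to 0.141 over the libraries left out, and was -0.759 without the 4 members with the widest gaps between the KO-labelled libraries, an alternative chosen after seeing the data. Signs turned for Eef1g footprints (-0.622 to 5.073) and TE (-0.967 to 4.834), Eef2 footprints (-0.024 to 0.101), Nap1l1 footprints (-0.220 to 0.964) and TE (-0.917 to 0.328), and Vim RNA (-0.195 to 0.198, and -0.017 without WT replicate 2) over the libraries left out. Eef2 TE was 0.011 with libraries centred on their median. The cause of these changes was not tested. With the replicate block the members gave 0 calls in footprints, 7 in RNA and 0 in TE, as without it. A crossed replicate block, added after seeing the data because same-numbered RNA libraries deviated in opposite directions, gave 0, 7 and 0. Over all tested genes, the 68 footprint calls became 32 with the replicate block, 134 with the crossed block, 110 with a pseudocount of 5, 0 without a filter, 0 without either WT library, 336 without KO replicate 1 and 1097 without KO replicate 2, and the 0 TE calls became 149 and 699 without KO replicates 1 and 2, 2 with the crossed block, and 1 each with the stricter filter and a pseudocount of 5. The 3882 RNA calls among 6389 genes became 6286 among 16442 genes without a filter. The planned count models other than limma-voom were not run, a choice made because the deposited unit is RPKM. The recovered reads used for limma-voom could have served them too. Low counts limit the footprints most for Nap1l1, Tpt1 and Eef1g. Their lowest libraries held 11 reads (KO replicate 2), 12 reads (WT replicate 1) and 5 reads (WT replicate 2). WT replicate 1 had the most assigned reads of all libraries, so these low counts did not simply follow depth.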
